A study of Mus musculus with 8 samples.

Results

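The genes described here are the constitutive proteasome subunits and the genes that share their symbols. They are all rows of the count table whose symbol is Psma, Psmb, Psmc, Psmd or Psme followed by a digit, without the inducible catalytic subunits Psmb8, Psmb9 and Psmb10. This gave 41 of the 12171 genes in the table. By role, 14 encode the 20S core (Psma1 to Psma7 and Psmb1 to Psmb7) and 17 the 19S cap (Psmc1 to Psmc6 and 11 Psmd genes). Another 3 encode 19S assembly chaperones (Psmd5, Psmd9 and Psmd10), 2 the Psme1/2 activator, and 2 the activators Psme3 and Psme4. Psme2b is a near-identical copy of Psme2. The remaining 2 match by symbol only: Psmc3ip is a meiotic recombination factor and Psme3ip1 a protein that binds Psme3.

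RNA-seq was performed on quadriceps (QUAD) muscle of 8 male C57BL/6J mice, aged 6 weeks on arrival. All 8 mice received D-galactose (D-gal) at 100 mg/kg daily by subcutaneous injection for 12 weeks, a treatment used to produce ageing-like muscle atrophy. In the D-gal + MSCs group (n = 4), 1000000 human umbilical cord mesenchymal stromal cells (MSCs) per mouse were given into hind limb muscles, QUAD among them, every 7 days for 6 cycles. The D-gal + PBS group (n = 4) received the same volume of phosphate-buffered saline. Both groups carried the D-gal treatment, so the comparison concerns MSCs in D-gal muscle. A group without D-gal was not analysed here.

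The proteasome degrades proteins that carry a ubiquitin tag. Its 20S core is a barrel of stacked rings, in which alpha subunits form the gate and beta subunits hold the proteolytic sites. The 19S cap binds ubiquitin chains, removes them, and unfolds the substrate with a ring of ATPases, whereas Psme1 and Psme2 form a smaller ring that opens the core without ubiquitin. In skeletal muscle this system breaks down myofibrillar proteins during atrophy, and interferon-gamma induces Psme1, Psme2 and the inducible catalytic subunits.

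Promoter sequences of 4 members are shown because these genes represent the constitutive catalytic sites (Psmb5, Psmb6) and the interferon-responsive activator (Psme1, Psme2). Each window runs 5′ to 3′ on the gene's strand, from 250 bases before to 50 bases after the RefSeq start site, in build GRCm38.p6. The deposited counts used GRCm39, so these coordinates are those of RefSeq only. Capitals mark the motif matches. In Psmb5 (chr14:54617946-54618245, minus strand) and Psmb6 (chr11:70525107-70525406, plus strand) they mark TGACNNNGC, the core of the antioxidant response element, starting at -47 and -9. In Psme1 (chr14:55578244-55578543, plus strand) they mark the interferon-stimulated response core on the opposite strand at 10. In Psme2 (chr14:55591052-55591351, minus strand) they mark GGGCGG, the GC box, on the opposite strand at -67 and 28.
Psmb5: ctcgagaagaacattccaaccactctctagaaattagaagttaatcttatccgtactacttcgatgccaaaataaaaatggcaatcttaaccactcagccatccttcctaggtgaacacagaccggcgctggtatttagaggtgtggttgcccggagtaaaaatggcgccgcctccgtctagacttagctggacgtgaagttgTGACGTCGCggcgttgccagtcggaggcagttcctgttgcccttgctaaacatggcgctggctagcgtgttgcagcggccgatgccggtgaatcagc
Psmb6: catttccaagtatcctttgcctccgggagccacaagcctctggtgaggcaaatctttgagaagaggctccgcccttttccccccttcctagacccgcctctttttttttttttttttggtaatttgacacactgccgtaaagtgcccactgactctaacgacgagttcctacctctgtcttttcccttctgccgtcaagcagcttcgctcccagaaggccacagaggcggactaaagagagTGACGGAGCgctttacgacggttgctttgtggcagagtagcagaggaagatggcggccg
Psme1: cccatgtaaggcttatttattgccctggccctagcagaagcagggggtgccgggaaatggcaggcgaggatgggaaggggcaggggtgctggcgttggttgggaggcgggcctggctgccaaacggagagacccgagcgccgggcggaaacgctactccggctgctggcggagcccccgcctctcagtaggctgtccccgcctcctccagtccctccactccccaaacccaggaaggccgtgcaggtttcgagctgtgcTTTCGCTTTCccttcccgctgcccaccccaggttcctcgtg
Psme2: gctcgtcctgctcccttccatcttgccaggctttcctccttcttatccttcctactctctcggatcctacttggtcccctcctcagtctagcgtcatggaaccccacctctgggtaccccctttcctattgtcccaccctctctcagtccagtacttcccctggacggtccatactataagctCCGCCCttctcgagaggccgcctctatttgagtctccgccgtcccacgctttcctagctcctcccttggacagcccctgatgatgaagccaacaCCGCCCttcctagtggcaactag

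Of the 41 members, 35 had a promoter window. Both strands were searched. A gene counted as having a motif if any of its windows matched. TGACNNNGC was present in 6 of these 35 genes (17.1%), beside 17.1% of measured genes and 14.0% of all genes with a window. The interferon-stimulated response core was present in 4 (11.4%; Psmb3, Psmd4, Psmd9 and Psme1), beside 3.64% and 3.99%. GGGCGG was present in 22 (62.9%), beside 69.5% and 38.2%, and CCAAT, the box bound by NF-Y, in 14 (40.0%), beside 42.9% and 41.1%. TTCNNNGAA, the gamma-activated site core, was present in Psmd2 only, beside 8.20% and 9.55%. A match describes these letters and is not evidence of binding.

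The libraries held 32772221 to 40057968 counts. Mitochondrially encoded genes took 13.9% to 18.6% of the counts in D-gal + PBS and 22.6% to 36.6% in D-gal + MSCs, without overlap. The muscle identity was plain, with Acta1 (skeletal alpha-actin) at 27514 to 46218 CPM (counts scaled to a common library size) and all 12 fibre markers measured. The library of D-gal + MSCs mouse 4 stood apart in the 9 slow oxidative fibre markers, which summed to 11664 CPM there, against 877 to 2388 CPM over D-gal + PBS and a lowest value of 2296 CPM in D-gal + MSCs, and 2 of the 9 were at 0 in some library. The part of either difference in the results was not tested. In bulk muscle, fewer cells of a type and less RNA per cell cannot be told apart.

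None of the 41 members passed the test between the groups. CPM values were scaled with TMM factors, and log2 fold changes give D-gal + MSCs over D-gal + PBS from edgeR's quasi-likelihood test across all genes. The thresholds drawn in the study's volcano plot of these libraries ask for p below 0.05 before adjustment and for a log2 fold change of 0.5 or more in size. No member met them, against 6.83% of all genes. No member had an unadjusted p under 0.05, against 10.7% of all genes. After Benjamini-Hochberg adjustment 0% of all genes passed 0.05 in edgeR, with a smallest adjusted p of 0.0512, and DESeq2 called 300 genes but no member.

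The fold changes were also narrowly bounded. The 95% interval of the log2 fold change lay within 0.5 of 0 for 37 of 41 members (90.2%), against 37.4% of all genes. The exceptions were Psmd8, Psme2, Psme2b and Psmc3ip. The share over all genes includes genes with few counts, with an SE of up to 2.21 against 0.378 among members. No share over genes of matched level was computed. The fitted value was below 0 for 31 of 41 members, against 50.5% of all genes, and the median over members was -0.06, against -0.003 over all genes. This imbalance rested on 1 library, since 19 of 41 were below 0 without D-gal + PBS mouse 4. These members share libraries and moved together between mice, so they are not independent replicates.

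**Figure D1:**
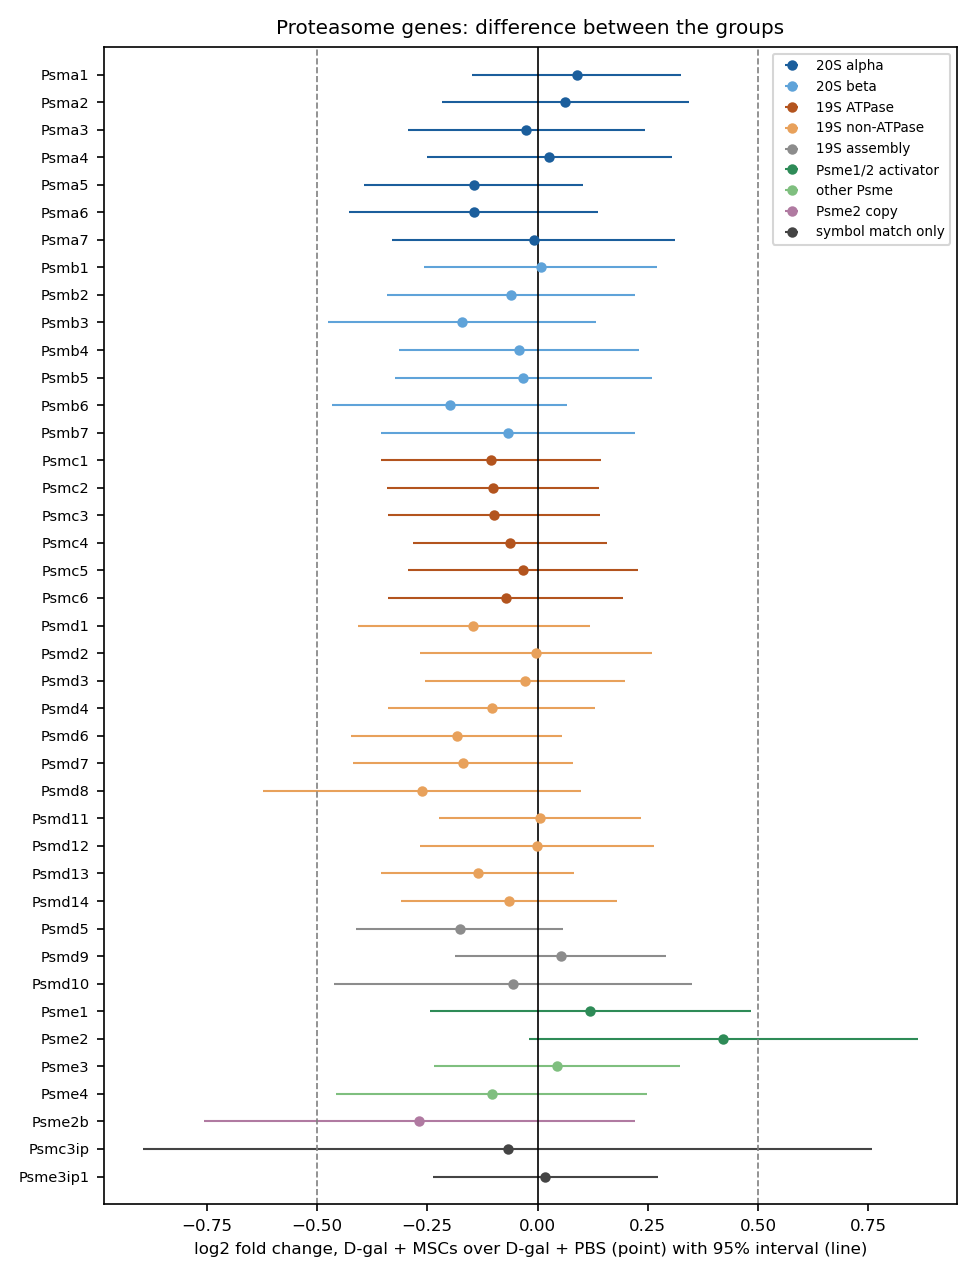
Log2 fold change of each of the 41 genes (x axis, D-gal + MSCs over D-gal + PBS, n = 4 mice each), with points for the edgeR estimate, lines for its 95% interval, colours for the role, and dashed lines at 0.5 either side of 0. The intervals of 37 genes lie between the dashed lines, and Psme2 has the highest estimate, 0.42.

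In the 20S core, all 14 genes gave small differences and none passed the test. The median log2 fold change was -0.04 (a 0.974-fold level), with a range of -0.20 to 0.09, and adjusted p from 0.587 to 0.988 in edgeR. All 14 intervals lay within 0.5 of 0, between -0.47 and 0.34. The alpha ring had a median of -0.01 with 4 genes below 0 and 3 above, and the beta ring a median of -0.06 with 6 below and 1 above.

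The 3 constitutive catalytic subunits overlapped between the groups. Psmb5, the chymotrypsin-like site, measured 132.5, 119.0, 121.0 and 158.8 CPM in D-gal + PBS and 112.3, 126.1, 144.3 and 136.6 CPM in D-gal + MSCs. Psmb6, the caspase-like site, measured 120.9, 105.6, 117.7 and 127.6 CPM in D-gal + PBS and 89.1, 96.6, 110.3 and 114.9 CPM in D-gal + MSCs. Psmb7, the trypsin-like site, measured 193.9, 178.3, 172.4 and 232.4 CPM in D-gal + PBS and 172.8, 184.3, 177.7 and 206.6 CPM in D-gal + MSCs. D-gal + PBS mouse 4 was the highest of all 8 mice for each of these genes. The log2 fold changes were -0.03 ± 0.133 (SE) for Psmb5, -0.20 ± 0.121 for Psmb6 and -0.07 ± 0.131 for Psmb7, with adjusted p of 0.955, 0.587 and 0.896 in edgeR.

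The other structural genes of the core with the smallest p values were Psma1, Psma5, Psma6 and Psmb3. Psma1 averaged 93.9 ± 7.05 CPM (SD, n = 4) in D-gal + PBS and 99.9 ± 6.52 CPM (SD, n = 4) in D-gal + MSCs, a log2 fold change of 0.09 ± 0.108 (SE). Psma5 averaged 69.9 ± 7.54 and 63.3 ± 4.28 CPM, a log2 fold change of -0.14 ± 0.113. Psma6 averaged 147 ± 22.3 and 133 ± 6.57 CPM, also -0.14 (± 0.129), and the structural beta subunit Psmb3 96.7 ± 12.8 and 85.9 ± 12.2 CPM, or -0.17 ± 0.139. The groups overlapped for all 4, and edgeR's adjusted p ran from 0.693 to 0.815.

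In the 19S cap, 16 of 17 genes had a fitted value below 0, against 50.5% of all genes, and none passed the test. The count below 0 was 14 of 17 with DESeq2 and 11 of 17 without D-gal + PBS mouse 4. The median log2 fold change was -0.10 (0.934-fold), the range -0.26 to 0.01, and the adjusted p 0.577 to 0.996 in edgeR. The 6 ATPases, which unfold the substrate, lay between -0.11 and -0.03. The 11 non-ATPase genes had a median of -0.10. The interval lay within 0.5 of 0 for 16 of 17, all but Psmd8.

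Among the ATPases, Psmc1 averaged 103 ± 12.2 CPM (SD, n = 4) in D-gal + PBS and 95.7 ± 2.38 CPM (SD, n = 4) in D-gal + MSCs. Psmc2 averaged 115 ± 6.94 and 107 ± 8.52 CPM, and Psmc3 157 ± 10.9 and 147 ± 7.55 CPM. Their log2 fold changes were -0.11 ± 0.114 (SE), -0.10 ± 0.110 and -0.10 ± 0.110, with overlapping groups and edgeR adjusted p of 0.781, 0.784 and 0.791.

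The non-ATPase genes with the smallest p were Psmd6, Psmd8 and Psmd7. Psmd6, a scaffold subunit of the lid, measured 131.9, 120.3, 123.5 and 147.5 CPM in D-gal + PBS and 112.6, 115.7, 116.8 and 115.8 CPM in D-gal + MSCs. Psmd7, the partner of the deubiquitinase Psmd14, measured 151.6, 144.2, 143.4 and 177.5 CPM in D-gal + PBS and 133.3, 142.5, 139.8 and 132.9 CPM in D-gal + MSCs. All D-gal + MSCs mice were below all D-gal + PBS mice for both genes, by less than 1 CPM at the nearest pair for Psmd7. Psmd8, a lid subunit, measured 241.7, 235.1, 185.9 and 325.6 CPM in D-gal + PBS and 219.4, 218.4, 186.0 and 200.4 CPM in D-gal + MSCs. Here the groups overlapped and D-gal + PBS mouse 4 stood highest. The log2 fold changes were -0.18 ± 0.109 (SE), -0.17 ± 0.114 and -0.26 ± 0.165 for Psmd6, Psmd7 and Psmd8, with edgeR adjusted p of 0.577, 0.630 and 0.603. Without D-gal + PBS mouse 4 the values of Psmd7 and Psmd8 were -0.0946 and -0.10. Without D-gal + PBS mouse 3, Psmd8 was at -0.37 with an unadjusted edgeR p of 0.0397, short of the fold the study asks for.

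None of the assembly chaperones passed the test. Psmd5, which holds ATPase intermediates during assembly, measured 29.5, 29.9, 27.4 and 29.3 CPM in D-gal + PBS and 23.3, 26.3, 26.3 and 26.9 CPM in D-gal + MSCs, again without overlap. Its log2 fold change was -0.18 ± 0.107 (SE), with an adjusted p of 0.584 in edgeR. Psmd9 averaged 25.1 ± 1.81 and 26.0 ± 1.09 CPM, and Psmd10 (gankyrin) 11.0 ± 0.73 and 10.6 ± 2.75 CPM. Their log2 fold changes were 0.05 ± 0.110 (SE) and -0.06 ± 0.185, with edgeR adjusted p of 0.905 and 0.947. With Psmd6 and Psmd7, 3 of 41 members were lower in D-gal + MSCs without overlap and 0 were higher. Over all genes 6.28% did not overlap, and 3.19% did so in the lower direction.

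The Psme1/2 activator had the highest median, 0.27 (1.21-fold), and neither gene passed the test. Psme1 measured 48.6, 33.9, 42.9 and 41.2 CPM in D-gal + PBS and 33.7, 41.1, 52.2 and 54.1 CPM in D-gal + MSCs. Psme2 measured 17.1, 13.4, 10.3 and 11.9 CPM in D-gal + PBS and 15.4, 14.6, 16.5 and 24.2 CPM in D-gal + MSCs. The groups overlapped for both genes. D-gal + PBS mouse 1 lay among the D-gal + MSCs values of Psme2, and D-gal + MSCs mouse 4, the library with high slow fibre markers, was the highest.

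For Psme2 the log2 fold change was 0.42 ± 0.202 (SE), with a 95% interval of -0.02 to 0.86 and an adjusted p of 0.484 in edgeR. The exact two-sided permutation test on its log2 CPM gave p = 0.143, where 0.0286 is the smallest that 4 against 4 mice allow. For Psme1 the log2 fold change was 0.12 ± 0.166, the adjusted p 0.843 in edgeR, and the exact permutation p 0.600. The size of both values depended on single mice. Psme1 ran from 0.0229 without D-gal + MSCs mouse 4 to 0.24 without D-gal + MSCs mouse 1. Psme2 was 0.58 without D-gal + PBS mouse 1 and 0.50 without D-gal + MSCs mouse 2, both past the study's thresholds, and 0.23 without D-gal + MSCs mouse 4. Of 18 markers of macrophages and leukocytes, cells in which the activator is also abundant, 11 were measured. They summed to 101 to 168 CPM in D-gal + PBS and 58.7 to 163 CPM in D-gal + MSCs. Their median log2 fold change was -0.64, and 10 of 11 were below 0, beside 50.5% of all genes. Of the 11, 1 was at an unadjusted edgeR p under 0.05, beside 10.7% of all genes. The part of these cells in the Psme1 and Psme2 values was not tested.

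Reads of Psme2 cannot be fully separated from those of Psme2b. The principal transcripts matched at 789 of 794 aligned bases (99.4%), and 44.5% of the 100-base windows of Psme2 occurred unchanged in Psme2b. Psme2b averaged 8.70 ± 2.75 CPM (SD, n = 4) in D-gal + PBS and 7.22 ± 0.31 CPM (SD, n = 4) in D-gal + MSCs, a log2 fold change of -0.27. With the counts of both genes summed, an alternative chosen after the data were seen, the log2 fold change was 0.19.

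The other activators overlapped between the groups. Psme3, which forms a nuclear activator ring, averaged 51.5 ± 5.56 and 53.1 ± 7.04 CPM, a log2 fold change of 0.04 ± 0.127 (SE; adjusted p 0.937 in edgeR). Psme4, a single-chain activator, averaged 231 ± 39.0 and 215 ± 34.5 CPM, a log2 fold change of -0.10 ± 0.161 (adjusted p 0.863). The genes that match by symbol only were at 0.02 (Psme3ip1) and -0.07 (Psmc3ip). Psmc3ip had as few as 26 counts in a library, and its interval ran from -0.90 to 0.76.

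**Figure D2:**
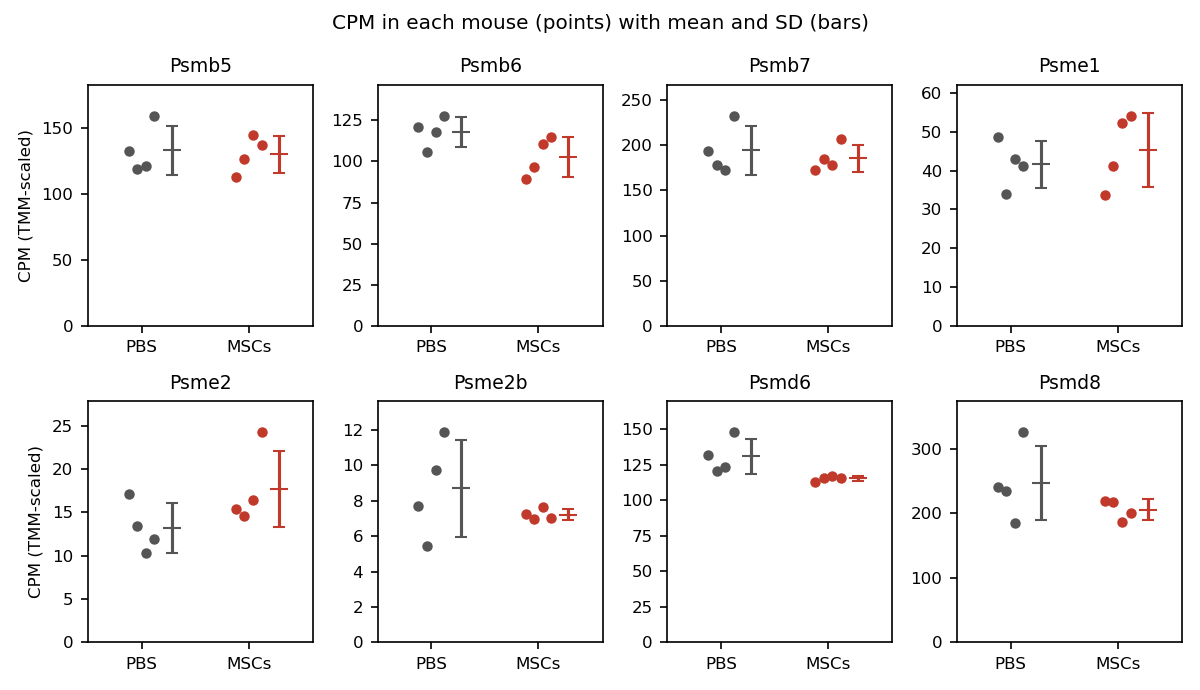
TMM-scaled CPM (y axis) of 8 members in each mouse (points, n = 4 per group), with mean and SD beside them as bars, for D-gal + PBS (PBS) and D-gal + MSCs (MSCs). The groups overlap for every gene shown except Psmd6, and D-gal + MSCs mouse 4 has the highest Psme2 value, 24.2 CPM.

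The 20S genes varied together between mice. After removal of the group means, log2 CPM of the 91 pairs of core genes correlated over the 8 mice with a median r of 0.840 (0.409 to 0.972), positive in all 91. The 136 pairs of cap genes had a median r of 0.50 (-0.571 to 0.960), positive in 121. The 238 pairs of a core with a cap gene had a median r of 0.482, and the 14 pairs of Psme1 with a core gene 0.492. These values are descriptions, since the pairs share libraries and scaling and no background over other genes was computed. The mean log2 CPM of the core, relative to the mean of 8 mice, was 0.072, -0.114, -0.112 and 0.249 in D-gal + PBS and -0.106, -0.110, 0.003 and 0.120 in D-gal + MSCs. The cap stood at -0.001, 0.028, -0.039 and 0.191 and at -0.043, -0.019, -0.109 and -0.007. D-gal + PBS mouse 4 was thus the highest for both after TMM scaling. As a share of all raw counts its core, 0.171%, stood beside 0.169% in D-gal + PBS mouse 1. Its cap, 0.223%, was below 0.235% in D-gal + PBS mouse 2. D-gal + MSCs mouse 4 had the highest core of its group after scaling but the lowest raw core share, 0.124%. The TMM factors of the mice numbered 4 were the lowest, 0.958 and 0.76. Without D-gal + PBS mouse 4 the median log2 fold change was 0.05 for the core and -0.06 for the cap.

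**Figure D3:**
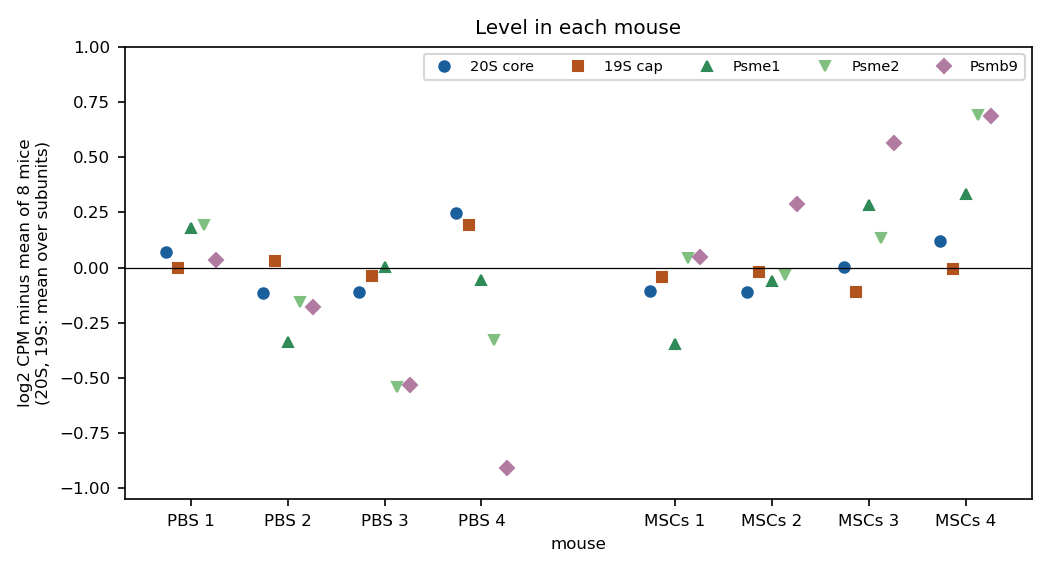
Log2 CPM minus the mean of the 8 mice (y axis) for each mouse (x axis), as the mean over 14 core or 17 cap genes and for Psme1, Psme2 and Psmb9. D-gal + PBS mouse 4 has the highest core value, 0.249, and Psmb9 is lowest in that mouse, -0.910.

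The scaling moved all of these values. As a share of all raw counts, the core took 0.163% ± 0.00812 (SD, n = 4) in D-gal + PBS and 0.139% ± 0.0114 (SD, n = 4) in D-gal + MSCs. The cap took 0.223% ± 0.00888 and 0.183% ± 0.0218. Neither share overlapped between the groups, and nor did the mitochondrial share given above, which was higher in D-gal + MSCs. With library totals in place of TMM factors, the median of all genes moved to -0.186, and the core and cap to -0.22 and -0.27. Relative to the median of all genes they were then at -0.030 and -0.088, against -0.034 and -0.096 with TMM. Under library totals 13 of 41 members had an unadjusted p under 0.05, all lower, beside 14.9% of all genes, but none passed the study's thresholds or the adjusted threshold.

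Levels were compared between genes only per kilobase of the principal GENCODE vM21 transcript. Within the core, whose subunits occur in equal numbers in the complex, the level ran from 27.3 CPM per kilobase for Psma2 to 164 for Psmb7, a 6.01-fold span. Within the cap it ran from 29.8 for Psmd11 to 147 for Psmd8, a 4.93-fold span. The chaperones were lower, at 6.22 (Psmd5), 7.55 (Psmd10) and 9.83 (Psmd9). Psme1 stood at 39.1 and Psme2 at 16.1 CPM per kilobase. With the union of exons as length, the core ran from 21.7 for Psma2 to 146 for Psmb5, with Psmb7 at 55.5, and the cap from 13.3 for Psmd11 to 74.1 for Psmd8. The order at the top of the core thus depended on the length used.

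**Figure D4:**
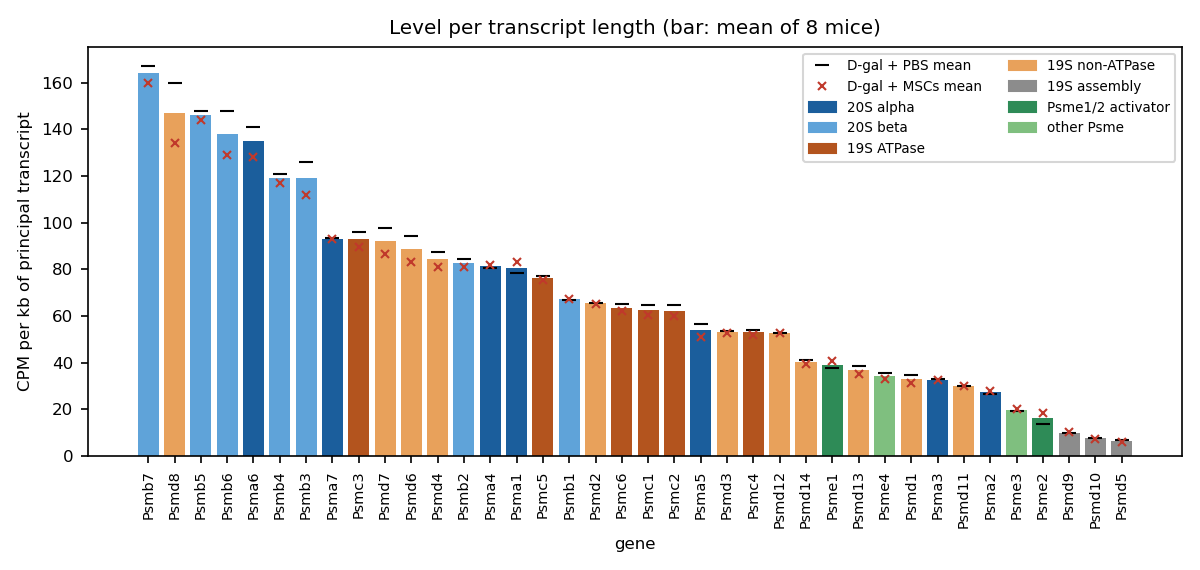
Mean level over the 8 mice of each 20S, 19S and Psme gene (bars), with the group means as ticks (D-gal + PBS) and crosses (D-gal + MSCs), in CPM per kilobase of principal transcript. Core and cap genes lie between 27.3 and 164, above the assembly chaperones at 6.22 to 9.83.

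The inducible counterparts were set beside the genes they replace. Psmb9 had a log2 fold change of 0.77 ± 0.236 (SE; adjusted p 0.250 in edgeR), against 0.39 for Psmb8 and 0.15 for Psmb10. Psmb9 passed the study's thresholds (unadjusted edgeR p 0.00696) without overlap of the groups, and did so with each mouse left out. With library totals alone it was at 0.56 (unadjusted edgeR p 0.0528), short of them. Psmb8 was at 0.58 without D-gal + PBS mouse 1, past the study's thresholds, and at 0.21 without D-gal + PBS mouse 4, and without the same mice Psmb10 was at 0.37 and 0.0004. Counts of Psmb9 as a percentage of those of Psmb6, a ratio chosen after the values were seen, were 5.41, 5.33, 3.74 and 2.64 in D-gal + PBS and 7.41, 8.07, 8.57 and 8.96 in D-gal + MSCs. All D-gal + MSCs mice were higher, with a ratio of means on the log scale of 2.00. The corresponding ratios were 1.37 for Psmb8 against Psmb5 and 1.17 for Psmb10 against Psmb7, with overlapping groups. They are given as descriptions, without a test.

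Other related genes of the pathway held none past the threshold. None of the 8 measured of 10 other proteasome genes, 6 chaperones of 20S assembly, 8 regulators of proteasome genes, or 10 ubiquitin and shuttle genes fell below an unadjusted edgeR p of 0.05, beside 10.7% of all genes. Their median log2 fold changes were -0.02, -0.01, -0.08 and -0.08. Among the regulators, Nfe2l1, the factor that raises subunit transcription when proteasome activity falls, was at 0.17, the only 1 of 8 above 0. Nfe2l2, the antioxidant response factor, was lower in D-gal + MSCs without overlap, at -0.23 (unadjusted edgeR p 0.0524). Of 21 interferon-gamma targets, 16 were higher at that threshold and 0 lower, beside 10.7% of all genes in either direction. Their median was 0.80 and their smallest adjusted p 0.0512 in edgeR. This list was chosen with earlier results of these data known. Its counts are descriptions, and the list was not tested.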

How the data were processed

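Per the labels and the study's methods, reads of total RNA from QUAD were aligned by the authors to GRCm39 with HISAT2, and raw counts per gene were deposited for 8 libraries. The sources used here do not name the counting tool, its annotation or the strand setting. The counts were analysed in R 4.3.3 with edgeR 4.0.16 (TMM, robust quasi-likelihood F test, group as the only term) on all 12171 genes, and filterByExpr removed 0. DESeq2 1.42.0 and limma-voom (limma 3.58.1), other scaling, a minimum of 10 counts, a replicate block and leaving out each mouse were alternatives. The depth was 32772221 to 40057968 counts, and the lowest count of any 20S or 19S gene in a library was 1585. The smallest chi-square per degree of freedom between replicates of a group was 41.4, so no library duplicated another of its group. Pairs across the groups were not compared in this way. The members and gene lists were chosen with earlier results of these data known. Values in each mouse, or group means with the fit, are given for catalytic subunits, Psme1 to Psme4, the assembly chaperones and the 3 genes with the smallest p in each ring or subcomplex. Scripts were tested on simulated data. Promoters and transcript lengths came from GRCm38 annotation, in which 40 of 41 members had a length.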

Additional observations from a re-analysis of the deposited data

Results flagged for a closer look

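Of 86 groups of 4 mice examined for a single value far from the others, 3 were past Dixon's 95% limit, which chance alone passes in about 1 in 20 groups. Psmb2, a beta subunit of the core, measured 87.9 CPM in D-gal + PBS mouse 4, where the nearest mouse had 68.9 CPM. Psmd12, a lid subunit, measured 114.2 CPM in the same mouse, where the nearest had 95.9 CPM. Psmd5, the assembly chaperone, measured 23.3 CPM in D-gal + MSCs mouse 1, where the nearest had 26.3 CPM.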

How the results depend on the processing

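No member reached the study's thresholds under other scaling, DESeq2, limma-voom, either count filter or removal of mitochondrial genes. Leaving out each mouse gave 0 to 1 members, the 1 being Psme2. Over all genes the number called was 831 at the study's thresholds, 1308 on the unadjusted p alone and 0 on the adjusted p. With library totals alone the medians were -0.22 for the core and -0.27 for the cap, against 0.0639 for Psme1/2 and 0.20 for Psme2. Of the 41 members, 40 were then below 0, against 31 with TMM factors. Psme1 (-0.0768), Psme3 (-0.15), Psmd9 (-0.13), Psma1 (-0.10) and Psmb10 (-0.0621) were among the genes that turned below 0. Leaving out each mouse, the log2 fold change ran from -0.0875 to 0.0643 for Psmb5, -0.12 to 0.0301 for Psmb7, -0.0525 to 0.11 for Psme3, -0.17 to 0.0154 for Psme4 and -0.24 to 0.0565 for Psmd10. The core median ran from -0.10 to 0.05, the cap median from -0.12 to -0.06 and the Psme1/2 median from 0.13 to 0.39. Except as given, the cause was not tested. Replicate numbers were not known to pair the mice. Same-numbered mice correlated at -0.003, 0.156, 0.100 and 0.218, and only number 4 matched itself best. With the replicate block, 0 members and 913 of all genes were called. The number of mice, 4 per group, limits the precision.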
